A study of Mus musculus with 1279 samples.

Results

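The genes of the insulin-like growth factor (IGF) system were examined in single cells of the mouse heart: the ligands Igf1 and Igf2, the receptors Igf1r and Igf2r, and the binding proteins Igfbp2, Igfbp3, Igfbp4, Igfbp5, Igfbp6 and Igfbp7. These 10 genes were taken by name, and all 10 were found among the 46517 genes of the count table. IGF ligands are secreted hormones that promote growth and survival. They signal through the tyrosine kinase receptor IGF1R, while IGF2R binds IGF2 and carries it to lysosomes without a growth signal. The binding proteins hold the ligands outside the cell, extend their life and limit or direct their access to receptors, and connective tissue cells are a known local source of both.

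Full-length cDNA was sequenced with Smart-seq2, a plate method with no molecular identifiers, in single sorted cells of male mice aged 10 to 20 weeks. The C57BL6 mice (581 cells) carried no reporter, and their cells were sorted with antibodies to the PDGF receptors. PdgfrbGFP (364 cells), Cspg4dsRED (12.7% of all cells) and Acta2GFP (13.4%) were reporter strains in which regulatory sequences of Pdgfrb, Cspg4 or Acta2 drive a fluorescent protein, and Acta2GFP hearts were also digested with elastase. The labels name no disease model, deletion or treatment in any strain. The labels give each cell its strain and 1 of 8 clusters, made by the authors from these same counts. Clusters 1 to 5 held 926 cells and are fibroblasts in the study's text, with cluster 1 placed at the valves, and clusters 6 to 8 held 353 cells and were taken as mural cells, the smooth muscle cells and pericytes of vessel walls. No animal is named, each reporter strain came from 1 plate, and strain, sort and plate cannot be told apart. The strain served as the replicate, so p-values measure only the spread between these strains, and they are not independent of the clustering.

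Markers were checked in sums of counts per cluster and strain, in CPM, counts scaled to a total of 1000000 per sum. The 5 fibroblast markers summed to 10590 to 14489 CPM in clusters 1 to 5 and to 309 to 3334 CPM in clusters 7 and 8. Pericyte markers reached 6942 to 23596 CPM in cluster 8, and smooth muscle markers 10670 to 15717 CPM in cluster 7. Pericyte markers were at 2486 to 8974 CPM in cluster 7, a range that overlapped cluster 8, but were lower there within each of the 3 strains that held both. Endothelial markers summed to 275.1 to 791 CPM in cluster 8, 62.4 to 640 CPM in cluster 7 and 5.22 to 199.4 CPM in clusters 1 to 5. Cardiac muscle markers were at 1350 to 2016 CPM in cluster 7, 165.9 to 391 CPM in cluster 8 and 10.2 to 355.6 CPM in clusters 1 to 5. Their list was Myh6, Tnnt2, Actc1, Ttn, Nppa, Myl2, Myl3, Tnni3 and Pln. The study's text names Actc1 among genes enriched in a smooth muscle population of heart and lung. The sum is thus not a measure of cardiac muscle RNA alone. Cluster 6 had smooth muscle markers at 9946 to 13384 CPM, but fibroblast markers at 3108 and 3223 CPM in Acta2GFP and Cspg4dsRED and at 12491 CPM in the 3 cells of C57BL6, a level inside the fibroblast range. The mural markers were Rgs5, Notch3, Mcam, Des and Cspg4. They summed to 781 to 2446 CPM in cluster 6, below the 5239 to 11764 CPM of clusters 7 and 8. In clusters 1 to 5 they were at 42.5 to 730 CPM. Gene counts per cell ran from 46268 to 1302397 with a median of 274504. Of the sums, 27 held 3 cells or more and were used. Without the cell with most counts of the gene, an exclusion added after the data were seen, more than 1.5 times lower were 19 of the sums for Igf2 and for Igf1r, 14 for Igfbp5, 13 for Igfbp3, 9 for Igf2r, 8 for Igf1, 5 for Igfbp2, 4 for Igfbp6, 2 for Igfbp4 and 0 for Igfbp7.

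Windows upstream of a listed start of 4 members are shown because 3 of these genes separated fibroblasts from mural cells and the fourth, Igfbp3, separated cluster 3. Each is the 250 bases before a RefSeq transcript start in GRCm38.p6, 5′ to 3′ on the strand of the gene. Capitals mark matches, on either strand, to the TATA motif TATAAA, the GC box GGGCGG, the E-box forms CAGCTG and CACGTG, or the AP-1 motif TGACTCA. The Igf1 window lies inside the gene span given below, as the listed RefSeq start is downstream of the first base of the GENCODE gene. Igf2 has 4 listed starts, of which the most downstream is shown, and gene counts cannot tell which start was used.
Igf1, chr10:87860861-87861110, plus strand: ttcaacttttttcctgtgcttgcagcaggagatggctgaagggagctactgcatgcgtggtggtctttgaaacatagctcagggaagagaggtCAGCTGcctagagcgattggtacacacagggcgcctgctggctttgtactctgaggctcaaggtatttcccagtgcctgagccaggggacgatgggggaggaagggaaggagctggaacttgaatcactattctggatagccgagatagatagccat
Igf2, chr7:142657497-142657746, minus strand: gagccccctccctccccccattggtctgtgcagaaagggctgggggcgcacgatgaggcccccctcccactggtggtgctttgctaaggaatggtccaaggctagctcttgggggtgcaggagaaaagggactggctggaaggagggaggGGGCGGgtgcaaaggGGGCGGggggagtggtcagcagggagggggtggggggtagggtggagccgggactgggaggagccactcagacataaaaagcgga
Igfbp3, chr11:7213924-7214173, minus strand: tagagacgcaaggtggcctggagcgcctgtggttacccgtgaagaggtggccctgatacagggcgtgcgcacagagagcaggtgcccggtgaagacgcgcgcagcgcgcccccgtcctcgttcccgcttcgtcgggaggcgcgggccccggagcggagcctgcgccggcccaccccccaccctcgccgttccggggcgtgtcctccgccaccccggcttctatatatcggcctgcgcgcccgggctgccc
Igfbp6, chr15:102143936-102144185, plus strand: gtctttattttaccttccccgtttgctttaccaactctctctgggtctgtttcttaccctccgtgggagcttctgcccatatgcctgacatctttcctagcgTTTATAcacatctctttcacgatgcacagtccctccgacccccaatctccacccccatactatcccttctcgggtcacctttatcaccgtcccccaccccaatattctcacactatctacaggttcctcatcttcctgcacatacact
The Igf1 window held 1 CAGCTG, a motif found in 4271 of all 32851 windows. The Igfbp6 window held 1 TATAAA on the other strand, against 12.4% of all windows. The Igf2 window held GGGCGG beginning 100 and 85 bases before the start, against 32.7% of all windows. The Igfbp3 window held none of the 5 motifs, and TGACTCA and CACGTG occurred in 4.46% and 6.02% of all windows. Over the 14 windows of the 10 members, GGGCGG was found in 6, TATAAA and CACGTG in 2 each, and CAGCTG and TGACTCA in 1 each.

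Igf1 (ENSMUSG00000020053, chr10:87858265-87937042, plus strand, GRCm38) was the main ligand transcript of fibroblasts. It was counted in 964 cells, 75.4% of all, and in 54.4% after each cell was thinned to 50000 counts. Summed over clusters 1 to 5, its level was 493.7 CPM in C57BL6, 264.3 CPM in PdgfrbGFP, 496 CPM in Cspg4dsRED and 412 CPM in Acta2GFP. In clusters 6 to 8 the values were 81.2, 64.6, 27.2 and 23.3 CPM in the same order. Every strain was higher in fibroblasts, and the ranges did not overlap. Fibroblasts had 416.5 ± 108.8 CPM and mural cells 49.1 ± 28.4 CPM (SD, n = 4). The fitted log2 difference was 3.04 (SE 0.47, adjusted p = 0.00454 in edgeR). This was 1 of 3 members called among the 9 tested, where 5.93% of all 15117 genes tested were called. DESeq2 and limma called 4 members each, against 13.2% and 9.22% of all genes, and edgeR with the strain as a replicate block 4, against 4.81%. The median log2 fold change was -0.06 over the members tested and -0.02 over all genes tested. Without clusters 1 and 6 the log2 fold change was 3.36 and the call was lost (adjusted p = 0.0969), as it was in cells of 100000 to 300000 counts (3.24, adjusted p = 0.0865), and over all settings tried the adjusted p ran from 1.33e-07 to 0.0969.

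Within fibroblasts, the mean of Igf1 over strains was highest in cluster 5, which 2 strains held, with 832 CPM in C57BL6 and 262.02 CPM in PdgfrbGFP. In PdgfrbGFP clusters 3 (660.5 CPM) and 1 (362 CPM) were above it. The cluster 3 value came from 7 cells with 714 of 1428 counts in 1, and was 380.7 CPM without that cell, with a median over cells of 4.49 CPM. By the median over cells cluster 1 came first. Cluster 2 had the lowest mean of sums, with 166.8 to 317 CPM, but in Acta2GFP cluster 3 (230.5 CPM) was below it (236.6 CPM), and by the median over cells cluster 3 came last of the fibroblast clusters. The ranges of all neighbours in this order overlapped from cluster 5 through clusters 1, 4, 3 and 2 to cluster 6. Cluster 6 (87.7 to 179.8 CPM) and cluster 8 (0.15 to 72.5 CPM) did not overlap. Single cells carried this gap. Without the cell with most Igf1 counts in each sum, an exclusion added after the data were seen, cluster 6 fell to 4.16 CPM in C57BL6 and 18.7 CPM in Cspg4dsRED, while cluster 8 of PdgfrbGFP was at 56.6 CPM, so that the ranges overlapped. Cluster 7 was at 0.84 to 7.61 CPM. In cluster 6 the level stood beside the fibroblast markers given above, and their part in it was not tested. With the same exclusion over all mural cells, the level was 35.9 CPM in C57BL6, 51.4 CPM in PdgfrbGFP, 5.99 CPM in Cspg4dsRED and 15.8 CPM in Acta2GFP, still below all fibroblast sums treated alike (252.9 to 479.9 CPM). Cluster 2 against clusters 3 to 5 gave a log2 fold change of -0.94 (SE 0.29, unadjusted p = 0.00858), which did not pass adjustment (adjusted p = 0.68).

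Igf2 (ENSMUSG00000048583, chr7:142650766-142666816, minus strand), a paternally expressed imprinted gene, went the other way. It was counted in 16.6% of cells. In mural cells it was at 77.4 CPM in C57BL6, 97.2 CPM in PdgfrbGFP, 22.9 CPM in Cspg4dsRED and 161.5 CPM in Acta2GFP. In fibroblasts the values were 5.16, 5.23, 0.284 and 6.44 CPM. Every strain was lower in fibroblasts, with no overlap. Without the cell with most Igf2 counts in each mural sum, the levels there were 44.7, 80.5, 14.7 and 121.03 CPM, still above all fibroblast sums. Endothelial markers were also higher in cluster 8 than in fibroblasts, as given above. Acta2GFP had the highest Igf2 level in cluster 8 and the lowest endothelial sum there (275.1 CPM). The part of endothelial or cardiac muscle RNA in mural Igf2 was not tested. The log2 fold change of fibroblasts over mural cells was -4.38 (SE 0.90, adjusted p = 0.0179 in edgeR). The call was kept without Cspg4dsRED (adjusted p = 0.00372) and lost without Acta2GFP (-4.19, adjusted p = 0.101), without C57BL6 (-4.54, 0.0931), without PdgfrbGFP (-4.48, 0.0886) and in cells of 100000 to 300000 counts (-3.77, 0.0958). Over all settings it ran from 1e-06 to 0.101.

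Among mural clusters, Igf2 was highest in cluster 8, where pericyte markers were highest, at 349.6 CPM in Acta2GFP and 71.55 to 100.5 CPM in the other 3 strains. It was at 10.4 to 66.7 CPM in cluster 7, below the range of cluster 8, and at 0.98 to 157.1 CPM in cluster 6, which overlapped both. Cluster 8 was above cluster 7 in each of the 3 strains that held both, with a log2 fold change of 1.88 (SE 1.04, adjusted p = 0.845). In cluster 7 of PdgfrbGFP all counts were in 1 of 9 cells, and in cluster 6 of Acta2GFP the level was 20.4 CPM without 1 of 3 cells. Cluster 8 was likewise at 28.9 CPM in Cspg4dsRED and 52.5 CPM in C57BL6 without its highest cell, a range that overlapped cluster 7, which was at 42.8 CPM in Acta2GFP without its own. In clusters 1 to 5 no strain exceeded 13.8 CPM. The share of cluster 8 cells with a count was 73.3% in Acta2GFP, against 34.5% in Cspg4dsRED, 24.4% in PdgfrbGFP and 24.2% in C57BL6. With every cell thinned to 50000 counts it was 53.3%, 27.6%, 15.2% and 18.2%. An annotated gene (Gm49394) overlaps Igf2 on the same strand over 3596 exonic bases, and how reads there were assigned was not stated.

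**Figure D1:**
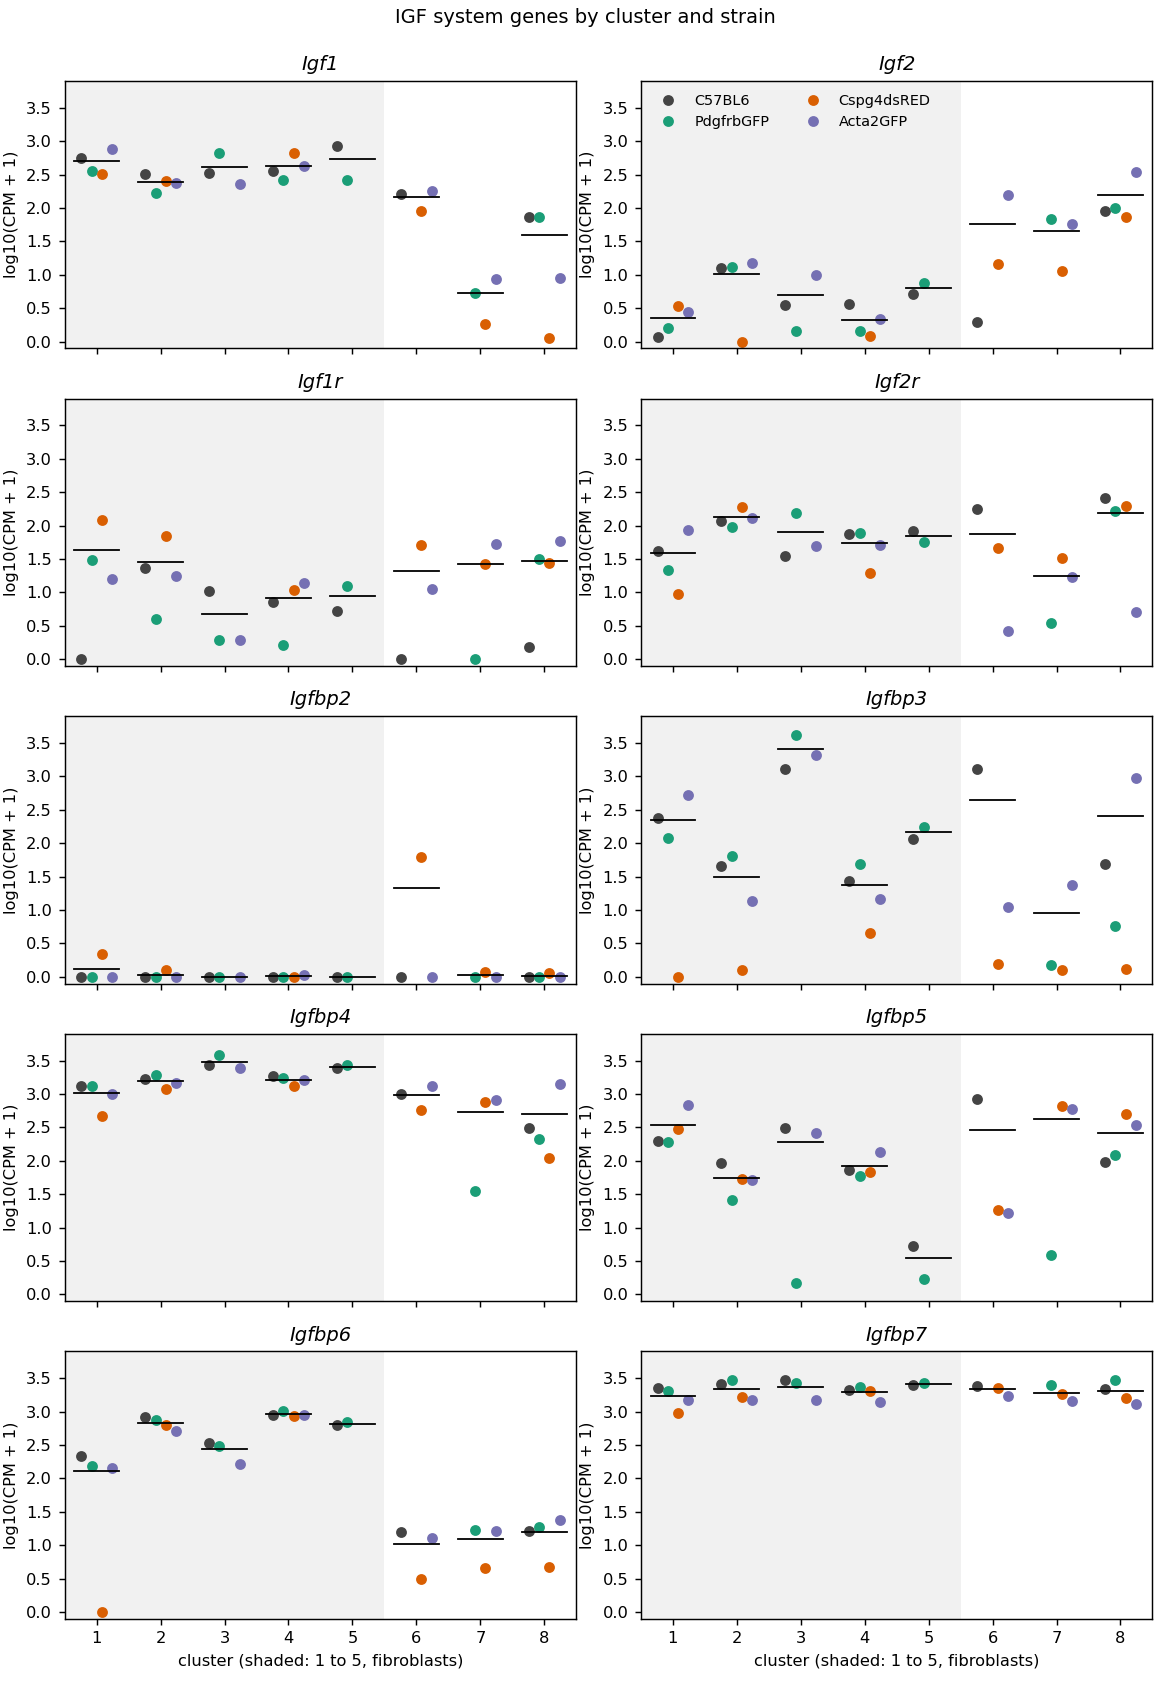
Level of each of the 10 genes, as log10 of (CPM + 1), in each cluster (x axis) for sums per strain (coloured points) with the mean over strains (black line). Igf1 was highest in clusters 1 to 5, Igfbp6 in clusters 2, 4 and 5, Igf2 in cluster 8, Igfbp3 peaked in cluster 3, Igfbp5 was low in cluster 5, and Igfbp7 was near the same level throughout.

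Igf1r (ENSMUSG00000005533, chr7:67952827-68233668, plus strand), the signalling receptor, was sparse. It was counted in 11.3% of cells, and in 6.73% of cells after thinning to 50000 counts. Its level by cluster and strain ran from 0 to 120.9 CPM. Fibroblasts had 17.8 ± 14.9 CPM and mural cells 27.97 ± 20.6 CPM (SD, n = 4), with 2 strains higher and 2 lower (log2 fold change -0.70, SE 1.02, adjusted p = 0.83). The ranges of all neighbouring clusters overlapped. Single cells carried part of these sums: without the highest cell, the Cspg4dsRED fibroblast level fell from 39.99 to 20.3 CPM and that of cluster 8 in Acta2GFP from 57.8 to 1.19 CPM. A difference was not detectable at this depth and spread.

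Igf2r (ENSMUSG00000023830, chr17:12682406-12769664, minus strand), the clearance receptor, was counted in 641 cells. It was at 69.03 to 111.2 CPM in fibroblasts and 10.8 to 246.3 CPM in mural cells, again with 2 strains in each direction (log2 fold change -0.50, SE 0.69, adjusted p = 0.821). In cluster 8 it was at 258.4 CPM in C57BL6, 165.8 CPM in PdgfrbGFP and 196.2 CPM in Cspg4dsRED but 4.03 CPM in Acta2GFP. Cluster 2 had 95.9 to 185.97 CPM, above the 53.6 to 72.2 CPM of clusters 3 to 5 in every strain. In PdgfrbGFP, without the highest cell on either side, it was 68.1 against 60.4 CPM. The difference was 1.02 on the log2 scale (SE 0.30, unadjusted p = 0.00669), with an adjusted p of 0.612. The antisense gene Airn overlaps Igf2r on the opposite strand, with no shared exonic bases, and had 21270 counts. Its log2 fold change of fibroblasts over mural cells was -1.28 (SE 0.47, adjusted p = 0.17), and with the strand setting not stated, unspliced reads of the pair cannot be assigned with certainty.

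Levels of the genes were set side by side per length. Pooled over all cells, Igfbp7 stood at 1855 CPM per kb of exon, Igfbp6 at 471, Igfbp4 at 380, Igfbp3 at 72.7, Igfbp5 at 26.3 and Igfbp2 at 0.960 CPM per kb. On the same scale Igf1 was at 34.2, Igf2r at 8.79, Igf2 at 3.81 and Igf1r at 0.943 CPM per kb. The order of this pooled level differed by cluster and strain. Igfbp4 was above Igfbp6 in each strain of cluster 1 (mean 233.9 against 114.2 CPM per kb), cluster 3 (679 against 243.4), cluster 6 and cluster 8 and in 2 of 3 strains of cluster 7. Igfbp3 was above Igfbp6 in each strain of cluster 3 (mean 808 CPM per kb) and above Igfbp4 there in 2 of 3. Elsewhere it exceeded Igfbp6 in 2 of 4 strains of cluster 8, 1 of 4 of cluster 1 and 1 of 3 of cluster 6. In cluster 6 it was above Igfbp4 in 1 of 3 strains. Igfbp3 was below Igf1 in 4 of 4 strains of cluster 4, 3 of 4 of cluster 2 and 2 of 3 of cluster 6. It was also below Igf1 in 1 of 2 strains of cluster 5 and in 1 strain each of clusters 1, 7 and 8. Igfbp5 was above Igf1 in each strain of clusters 7 and 8. It was also above Igf1 in 2 of 3 strains of cluster 3 and 2 of 4 of cluster 1. In cluster 6 it was above in 1 of 3, the 3 C57BL6 cells.

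**Figure D2:**
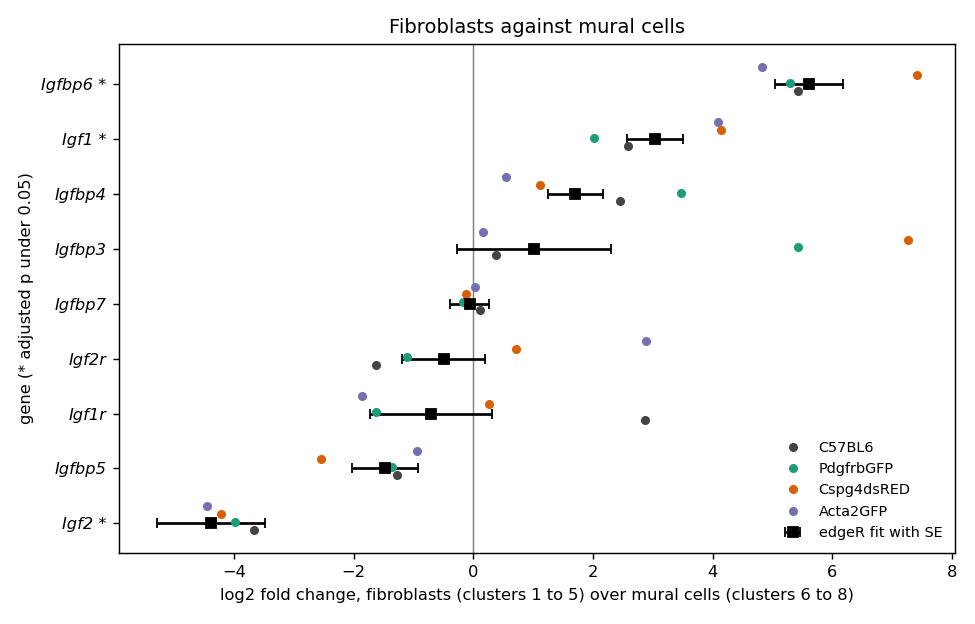
Log2 fold change of fibroblasts over mural cells (x axis) for the 9 tested genes, as the edgeR estimate with its SE (black squares and bars) and within each strain (coloured points, pseudocount of 1 CPM). The 3 genes with a star had an adjusted p under 0.05, and Igfbp6, at 5.62, had the largest estimate.

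Igfbp6 (ENSMUSG00000023046, chr15:102144362-102149511, plus strand), a binding protein that prefers IGF2, separated fibroblasts from mural cells most widely of the members. In clusters 1 to 5 it was at 691 CPM in C57BL6, 722.5 CPM in PdgfrbGFP, 707 CPM in Cspg4dsRED and 516.9 CPM in Acta2GFP. In clusters 6 to 8 the values were 15.1, 17.4, 3.14 and 17.3 CPM. The lowest fibroblast sum was far above the highest mural sum. The fitted log2 difference was 5.62 (SE 0.57, adjusted p = 0.00049 in edgeR), and it was called under every setting tried, with adjusted p from 6.26e-23 to 0.00983.

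Igfbp6 also differed among fibroblast clusters. It was at 870 to 1028 CPM in cluster 4, 518.5 to 827.5 CPM in cluster 2, 628 and 692 CPM in cluster 5, 163.99 to 344 CPM in cluster 3 and 0 to 212.8 CPM in cluster 1. A few cells carried the low sums: the median over cells was 57.9, 22.2 and 18.3 CPM in cluster 3 of Acta2GFP, C57BL6 and PdgfrbGFP, and 0 to 23.04 CPM in cluster 1. In cluster 1 the values were 212.8 CPM in C57BL6, 153.5 CPM in PdgfrbGFP and 141.9 CPM in Acta2GFP, and no read was counted in the 3 Cspg4dsRED cells, which allows up to 3.70 CPM. All were below the 622 to 794 CPM of clusters 2 to 5. Cluster 1 against clusters 2 to 5 gave a log2 fold change of -2.46 (SE 0.88, adjusted p = 0.323), and without Cspg4dsRED it was -2.06 and passed the threshold (adjusted p = 0.0189 in edgeR). Over all settings the adjusted p ran from 0.0189 to 0.628. Cluster 3 against clusters 2, 4 and 5 gave -1.36 (SE 0.35, adjusted p = 0.364), lower in 3 of 3 strains, and cluster 4 against clusters 2, 3 and 5 gave 0.61 (SE 0.21, adjusted p = 0.806), higher in 4 of 4 strains.

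Igfbp4 (ENSMUSG00000017493, chr11:99041244-99054392, plus strand), an inhibitor of IGF action that the protease PAPP-A cleaves, was counted in 1252 cells. Fibroblast sums were 2103 CPM in C57BL6, 2147 CPM in PdgfrbGFP, 1275 CPM in Cspg4dsRED and 1525 CPM in Acta2GFP. Mural sums were 383, 192.1, 588 and 1042 CPM. Every strain was higher in fibroblasts, without overlap, but the log2 fold change of 1.70 (SE 0.46) narrowly missed the threshold (adjusted p = 0.0585 in edgeR). It passed in DESeq2 (0.0104), in limma (0.015), without clusters 1 and 6 (0.0425) and without Acta2GFP (2.28, adjusted p = 0.0439), and the range over all settings was 0.0104 to 0.291. Acta2GFP had the highest mural level, with 1389 CPM in cluster 8 against 108.7 to 307 CPM in the other strains. Fibroblast markers in those 15 Acta2GFP cells summed to 3334 CPM and smooth muscle markers to 4033 CPM, against 959.5 to 1370 CPM and 201.1 to 1170 CPM in cluster 8 of the other strains. Their part in the result was not tested.

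Igfbp4 was highest in cluster 3, at 2753 CPM in C57BL6, 3801 CPM in PdgfrbGFP and 2438 CPM in Acta2GFP, and next in cluster 5, at 2424 and 2701 CPM. The ranges of these clusters overlapped, and both lay above the 1303 to 1848 CPM of cluster 4. Cluster 3 against clusters 2, 4 and 5 gave a log2 fold change of 0.79 (SE 0.24, adjusted p = 0.378), and with the strain as a replicate block 0.78 with an adjusted p of 0.00526. The large C57BL6 plates differed for this gene in the same direction in all 5 fibroblast clusters. Igfbp4 was at 1220 to 2428 CPM on one plate and 2008 to 3560 CPM on the other.

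Igfbp3 (ENSMUSG00000020427, chr11:7206086-7213923, minus strand), the main carrier of IGFs in blood, marked cluster 3. Its level there was 1293 CPM in C57BL6, 4167 CPM in PdgfrbGFP and 2125 CPM in Acta2GFP. In clusters 2, 4 and 5 of the same strains it was 64.6, 106.97 and 13.2 CPM. Every strain was higher in cluster 3, without overlap. The estimate was 5.51 on the log2 scale (SE 0.76, unadjusted p = 1.7e-05), yet the adjusted p was 0.123 in edgeR, where 0 of 14803 genes were called (0.0%). With the strain as a replicate block the log2 fold change was 5.75 and Igfbp3 was called (adjusted p = 0.000734), where 0.236% of genes were called, as it was in DESeq2 (5.62e-05). Limma gave 0.0793, and over all settings the adjusted p ran from 1.26e-09 to 0.642. The large C57BL6 plates gave like levels in cluster 3, at 1286 and 1309 CPM.

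Over all fibroblasts Igfbp3 was at 253.7 CPM in C57BL6, 229.3 CPM in PdgfrbGFP, 208.9 CPM in Cspg4dsRED and 365 CPM in Acta2GFP. In mural cells it was at 195.97, 4.37, 0.367 and 325 CPM. The Cspg4dsRED fibroblast value rested on 1 of 26 cells, with 2187 of 2205 counts, and was 1.83 CPM without it. In mural cells of C57BL6, 1331 of 1692 counts were in 1 cell of cluster 6, and the level was 43.3 CPM without it. In Acta2GFP the fibroblast level of 324.6 CPM without its highest cell stood above the 246.9 CPM of mural cells treated alike. Over single mural cells, Spearman's rho of Igfbp3 with its summed CPM in fibroblasts of the same plate row or column was 0.55 in Acta2GFP (51 cells), 0.49 in PdgfrbGFP (35.2% of its 364 cells), 0.21 in C57BL6 and 0.15 in Cspg4dsRED. For Igf1 it was 0.115 to 0.312 and for Igfbp6 0.235 to 0.275 over the 4 strains, and for Igf2 in fibroblasts -0.111 to 0.382. These cells share plates and library pools, and the part of plate position in these levels was not tested. The ranges of the sums overlapped, and the log2 fold change of 1.02 (SE 1.29, adjusted p = 0.798) did not pass the test.

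Within cluster 3 the gene was not uniform. A count was present in 84.4% of the 90 C57BL6 cells (95% Wilson interval 75.6 to 90.5%), in 14 of 14 Acta2GFP cells and in 7 of 7 PdgfrbGFP cells. After thinning the shares were 71.1%, 85.7% and 85.7%. In the other fibroblast clusters the thinned share was 17.3 to 36.8% in C57BL6 and 13.2 to 28.6% in PdgfrbGFP, but 53.8 to 57.9% in Acta2GFP, a narrower gap. The median over cells of CPM in cluster 3 was 758 in C57BL6, below the sum-based 1293 CPM, 5052 in PdgfrbGFP, above the sum-based 4167 CPM, and 1585 in Acta2GFP, below the sum-based 2125 CPM. Intervals cover counting error only.

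Outside cluster 3, Igfbp3 was at 114.5 and 172.96 CPM in cluster 5, 0.246 to 63.1 CPM in cluster 2 and 3.57 to 48.7 CPM in cluster 4. Both were below the rest of clusters 2 to 5 in all 4 strains. In Cspg4dsRED both sides rested on 1 cell each: without the highest cell on either side, cluster 4 was at 0.0 CPM and its reference at 0.235 CPM, down from 439.7 CPM, so that strain gave no difference at this depth. On the log2 scale the difference was -3.59 for cluster 2 (SE 0.93, adjusted p = 0.425; DESeq2 0.0047) and -4.10 for cluster 4 (SE 0.65, adjusted p = 0.0882; DESeq2 8.45e-09, limma 0.021). These comparisons shared their reference cells and included cluster 3 on the other side. In cluster 5 it was -0.99 (SE 0.31, adjusted p = 1.0). Among mural cells the level reached 951 CPM in cluster 8 of Acta2GFP and 1311 CPM in the 3 C57BL6 cells of cluster 6, and 47.99 CPM or less in the other cluster 7 and 8 sums. Cluster 8 against cluster 7 gave 5.39 (SE 2.30, unadjusted p = 0.0362, adjusted p = 0.649, range 0.000685 to 0.854), an estimate that rested on Acta2GFP: without that strain the gene did not pass the filter on low counts.

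Igfbp5 (ENSMUSG00000026185, chr1:72857932-72874884, minus strand), a matrix-bound carrier, was higher in mural cells of every strain, at 232.6 CPM in C57BL6, 110.7 CPM in PdgfrbGFP, 438 CPM in Cspg4dsRED and 459 CPM in Acta2GFP. In fibroblasts it was at 95.5, 42.3, 74.1 and 238.2 CPM. The ranges overlapped because strains differed on both sides. The log2 fold change was -1.48 (SE 0.55, adjusted p = 0.184), and with the strain as a replicate block -1.55 with an adjusted p of 0.0492, while over all settings it ran from 0.0492 to 0.454. PdgfrbGFP cells of cluster 7 had 2.94 CPM, against 593 and 669 CPM in Acta2GFP and Cspg4dsRED.

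Among fibroblasts, Igfbp5 was high in cluster 1, at 197.1 CPM in C57BL6, 188.9 CPM in PdgfrbGFP, 299.9 CPM in Cspg4dsRED and 682.5 CPM in Acta2GFP. Clusters 2 to 5 had 91.8, 23.96, 55.3 and 113.8 CPM. Each sum was higher in cluster 1, without overlap, but all counts of Cspg4dsRED were in 1 of 3 cells, and in C57BL6 the cluster 1 level was 230.3 CPM on one plate and 0.0 CPM in the 3 cells of the other. Without the highest cell, the sums were 127.02 CPM in C57BL6 and 113.4 CPM in PdgfrbGFP. The median cluster 1 cell was at 0.0 CPM in every strain but Acta2GFP (43.6 CPM). The difference was 2.27 on the log2 scale (SE 0.54, adjusted p = 0.0676 in edgeR, DESeq2 0.00294, range 0.00294 to 0.624, 0.537 with C57BL6 split by plate). No member was called in edgeR in this comparison, 3 had an unadjusted p under 0.05, and 1.33% of genes were called. DESeq2 called 5.3% of genes there and limma 2.36%, with no member called in limma. The third of these members was Igfbp4, with a log2 fold change of -0.81 (SE 0.36, adjusted p = 0.533). At the other end, Igfbp5 in cluster 5 was at 4.41 CPM in C57BL6 and 0.694 CPM in PdgfrbGFP, against 131.7 and 41.2 CPM in clusters 2 to 4. With these 2 strains the log2 fold change was -5.00 (SE 1.05, unadjusted p = 0.0038, adjusted p = 1.0; DESeq2 2.58e-06). Cluster 3 showed no common direction, with 308 and 258.4 CPM in C57BL6 and Acta2GFP but 0.463 CPM in 7 PdgfrbGFP cells.

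Igfbp7 (ENSMUSG00000036256, chr5:77349240-77408041, minus strand), which binds IGFs weakly, was counted in every cell, also after thinning. It was at 946.5 to 2951 CPM in all clusters and strains. Fibroblasts had 2062 ± 531 CPM and mural cells 2127 ± 618 CPM (SD, n = 4), with 2 strains in each direction and within-strain log2 differences from -0.18 to 0.12. The log2 fold change was -0.06 (SE 0.33, adjusted p = 0.961). By strain it was at 1429 to 1463 CPM in Acta2GFP, 1772 to 1923 CPM in Cspg4dsRED and 2253 to 2903 CPM in C57BL6 and PdgfrbGFP over both cell classes.

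The Igfbp7 level fell with the depth of the cell. In cluster 5 the median was 3965 CPM in the 63 cells of the shallowest depth bin and 1803 CPM in the 30 cells of the deepest, while the median count rose only from 406 to 1002. The same direction held from the shallowest to the deepest bin in all 8 clusters, with as few as 6 cells in the deepest bin of cluster 8. Igfbp4 was also lower in the deepest than in the shallowest bin of clusters 1 to 5, at 2218 against 5896 CPM in cluster 3, 1400 against 2942 CPM in cluster 2 and 2199 against 2848 CPM in cluster 5. In clusters 6 to 8 its deepest bin was higher. Strains were not equally spread over depth. Igfbp7 reached up to 1.25 reads per exonic base, with 750 cells above 0.5, and no gene in any cell exceeded 2 reads per base. Removal of duplicate reads by position would cap counts in this way, and whether the Igfbp7 level is a capped measure was not tested. Its like levels in the clusters and its shares carry the same limit. Igfbp6 was above 0.5 in 98 cells and Igfbp3 in 11. The median of Igf1 was higher in the deepest than in the shallowest bin of clusters 1, 2, 4 and 5. It was at 690 against 16.1 CPM in cluster 5 and 213.7 against 17.2 CPM in cluster 2. In cluster 3 it was lower in the deepest bin, at 89.1 against 229.9 CPM. The part of depth in the levels of Igfbp7, Igfbp4 and Igf1 was not tested. In cells of 100000 to 300000 counts, a selection added after the data were seen, the fibroblast over mural log2 fold change of Igfbp7 was 0.14 (adjusted p = 0.91). An opposite-strand neighbour, Polr2b, shares 85 exonic bases with it.

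**Figure D3:**
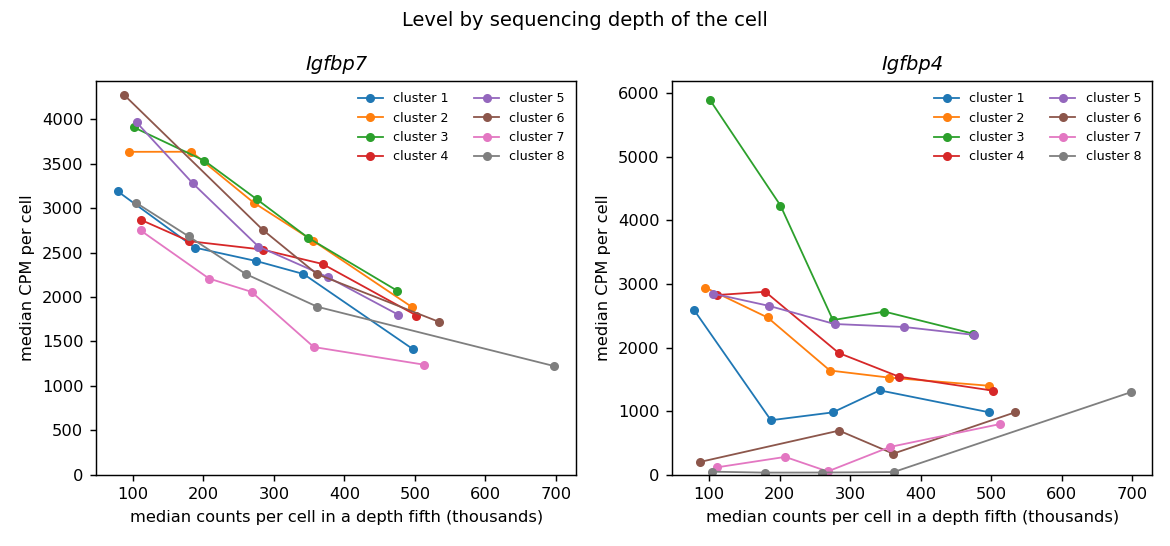
Median CPM per cell (y axis) of Igfbp7 and Igfbp4 in cells binned by gene counts per cell (x axis, median counts per cell), with 1 line per cluster and only groups of 5 cells or more. Igfbp7 fell from the shallowest to the deepest bin in each of the 8 clusters, and Igfbp4 in clusters 1 to 5.

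Igfbp2 (ENSMUSG00000039323, chr1:72824503-72852474, plus strand) was almost absent. It had a count in 11 cells (0.86%) and did not pass the filter on low counts in any comparison. Of its 678 counts, 671 lay in 4 of the 33 Cspg4dsRED cells of cluster 6, where the sum was 62.1 CPM. A single cell held 549 of these, without which the sum was 11.7 CPM and that of all Cspg4dsRED mural cells 3.60 CPM instead of 19.1 CPM. Each other sum had 3 counts or fewer. In cluster 6 of C57BL6 and Acta2GFP, with 3 cells each, no count was seen.

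The binding protein transcripts were also read as shares of their summed CPM per kb in each cluster and strain. Igfbp7 took the largest mean share in each cluster, from 52.2 ± 9.79% in cluster 3 (SD, n = 3 strains) to 87.6 ± 10.0% in cluster 7 (n = 3). Igfbp6 took 29.4 ± 3.24% in cluster 4 and 22.5 ± 2.77% in cluster 2 (n = 4 each), but 6.52 ± 1.36% in cluster 3 (n = 3), 5.21 ± 3.53% in cluster 1 (n = 4) and 1.13% or less in each mural sum. Igfbp3 took 21.7 ± 9.56% in cluster 3 and 1.36% or less on average in clusters 2, 4 and 5. Igfbp4 held 12.3 to 18.6% on average in fibroblast clusters. Per cell and divided by length, Igfbp7 led in 80.6 to 97.4% of fibroblasts and 97.5 to 100% of mural cells on average by cluster. Igfbp6 led in 17.2 ± 5.26% of cluster 4 cells, and Igfbp3 in 19.4 ± 15.9% of cluster 3 cells, with 28.6% in PdgfrbGFP and Acta2GFP but 1.11% in C57BL6. Without division by length, shares were again averaged over strains. Igfbp7 then led in 19.2% of cells in cluster 3, 49.1% in cluster 5, 53.7% in cluster 4, 67.3% in cluster 1 and 72.4% in cluster 2. By mural cluster it led in 76.6 to 85.4% of cells. In cluster 3 Igfbp4 led in 42.6% and Igfbp3 in 38.1% of cells on average, but strains differed. In the 90 C57BL6 cells Igfbp7 led in 43.3%, Igfbp4 in 42.2% and Igfbp3 in 14.4%. Igfbp3 led in 42.9% of the 14 Acta2GFP cells and 57.1% of the 7 PdgfrbGFP cells, and Igfbp7 in 14.3% and 0.0%.

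**Figure D4:**
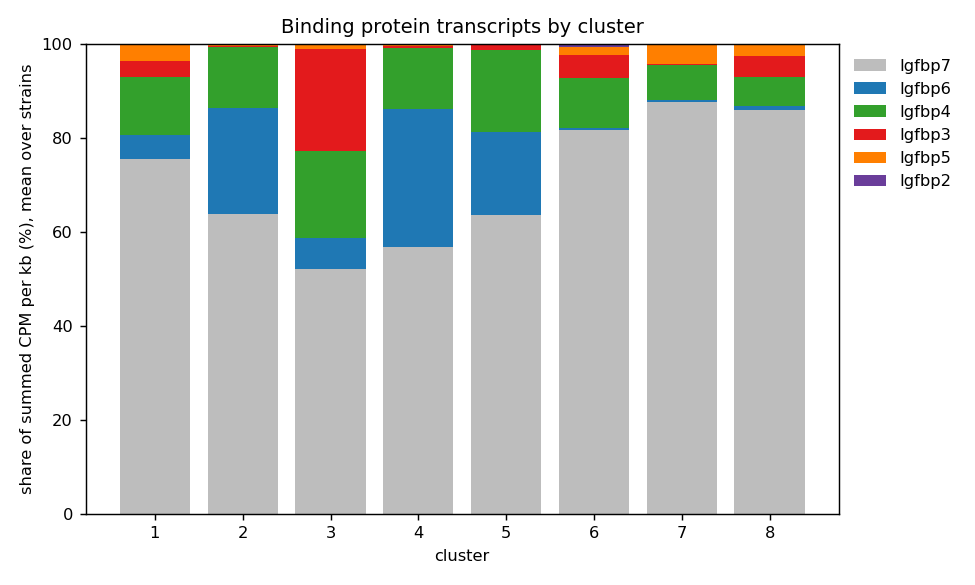
Mean over strains of the share (y axis, percent) that each of the 6 binding protein genes takes of their summed CPM per kb, by cluster (x axis), as stacked bars that sum to 100%. Igfbp6 shares were widest in clusters 2, 4 and 5, Igfbp3 in cluster 3, and Igfbp7 took 52.2 to 87.6%.

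Cluster 6 against clusters 7 and 8 gave no call, with 0 members at an unadjusted p under 0.05 and none in DESeq2 or limma, where 0.033% of genes were called in edgeR, 2.99% in DESeq2 and 0.0413% in limma. Igfbp5 was at 15.7 CPM in cluster 6 against 502.6 CPM in Acta2GFP and at 17.1 against 622.5 CPM in Cspg4dsRED, but at 846 against 150.3 CPM in C57BL6, whose 3 cluster 6 cells had the fibroblast markers given above. The estimate was -0.59 (SE 1.20, adjusted p = 0.994), and without C57BL6 it was -4.95 and called (adjusted p = 0.0467 in edgeR), where 0.144% of genes were called. Over all settings the adjusted p ran from 0.0467 to 1.0. In cluster 8 against cluster 7 no member was called in edgeR, DESeq2 or limma, 1 member (Igfbp3) had an unadjusted p under 0.05, and 0.194% of genes were called in edgeR, 3.44% in DESeq2 and 0.379% in limma. In clusters 2, 3, 4 and 5 against the others of these, no member was called in edgeR, as was true of every gene tested (0.0%), and 3, 3, 3 and 2 members had an unadjusted p under 0.05. DESeq2 called 1 member in each of these (Igfbp3, Igfbp3, Igfbp3 and Igfbp5), where it called 1.29%, 2.71%, 1.31% and 0.874% of genes in turn. Limma called Igfbp3 in cluster 4 alone, with 0.106% of genes there, 0.0135% in cluster 3 and 0.0% in clusters 2 and 5. The remaining such member, Igf2r in cluster 4, was at 18.5 to 76.1 CPM against 74.7 to 216.6 CPM in clusters 2, 3 and 5 (log2 fold change -1.13, SE 0.49, adjusted p = 1.0).

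Other genes of the pathway were read from a list of 40, of which 29 were tested between fibroblasts and mural cells, 1 was higher and 1 lower, beside the 5.93% of all genes called there. Socs2, a feedback inhibitor of growth hormone signalling, was at 130.6 to 248.1 CPM in fibroblasts and 28.3 to 72.5 CPM in mural cells, higher in 4 of 4 strains (log2 fold change 1.76, SE 0.37, adjusted p = 0.02 in edgeR). It was the only one called of the 4 genes of growth hormone input, and Ghr, the growth hormone receptor, had 1.27 (SE 0.49, adjusted p = 0.201). Ccn3, a matricellular protein of the CCN family, was lower in fibroblasts of all 4 strains, at 6.36 to 16.9 CPM against 10.5 to 292.5 CPM, ranges that overlapped (log2 fold change -3.65, SE 0.94, adjusted p = 0.0487). No gene was called among 1 tested of the insulin receptor family, 3 of the proteases and their inhibitors, 13 of the signalling genes and 3 of the RNA-binding and imprinted partners, and the 3 other carriers did not pass the filter. Of the 28 to 30 tested in each of the other 7 comparisons, none was called in edgeR, with 0 to 4 at an unadjusted p under 0.05.

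Likeness of pattern was measured as Pearson's r of log2(CPM + 1) over the 27 sums, among 10326 genes with a mean of 10 CPM or more. The sums share strains, plates and depth, so the values are descriptions. Igfbp6 was most like Ly6a (r = 0.99), Smoc2 (0.95) and Gm36535 (0.94). Igf1 was most like Lum (0.92), Lsp1 (0.92) and Mgst1 (0.91). Igf2 was most like Gcnt2 (0.81), Notch3 (0.79) and Itga7 (0.79), and Igfbp3 like Pdcd4 (0.86), Gm17300 (0.76) and Ccl19 (0.75). Among the members themselves, r ran from -0.67 for Igf1 with Igf2 to 0.65 for Igf1 with Igfbp4.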

How the data were processed

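Smart-seq2 libraries of single cells were analysed as deposited. From the methods text, the authors trimmed adapters with Trim Galore, aligned to GRCm38 with TopHat2, removed what they call doublets with samtools, and counted reads per gene with featureCounts. The deposited values were raw counts per gene and cell, and strand setting and annotation release were not given in the sources used here. No cell or further doublet was removed. The 92 spike-ins, 1.82% of counts, were left out. Genes were matched by identifier to GENCODE M21 (46005 of 46517). For each of 8 comparisons, cells of a strain were added up on either side (at least 3 cells on both sides) and tested with edgeR 4.0.16 in R 4.3.3 by the quasi-likelihood test, with TMM, a filterByExpr minimum count of 10 and Benjamini-Hochberg adjustment at 0.05. DESeq2 1.42.0 and limma 3.58.1 were alternatives, with other scalings, no filter, larger sums, C57BL6 split by plate, a depth window, a strain block and each strain left out. Levels without the cell holding most counts of a gene were added after the data were seen. For shares, cells were thinned to 50000 counts, which left out 2. Named genes were the 10 members, called genes of the pathway lists with 1 direction in all strains, and the most alike genes. The members and lists were chosen with earlier results of these data known. Both sides of each reporter strain come from 1 plate, while C57BL6 fibroblasts come from 3 plates and its mural cells from 1 of these. Correlations of their deviations were 0.023 to 0.271, above 0.1 in every strain only for clusters 2, 3, 4 and 5.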

Additional observations from a re-analysis of the deposited data

Results flagged for a closer look

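For groups of 4 strains, a sample apart from the other 3 was sought by its gap to the nearest neighbour over the whole range. Of 60 groups, 15 passed the 95% limit. Chance flags about 1 in 20 only where groups are independent and levels normally spread. These groups share cells, and levels were often set by few cells, so the count was not read against that rate. In cluster 8 the Acta2GFP sum stood above the others for Igf2 (349.6 CPM), Igfbp3 (951 CPM) and Igfbp4 (1389 CPM). In cluster 4 the Acta2GFP sum was highest for Igfbp5 (135.02 CPM) and the PdgfrbGFP sum for Igfbp6 (1028 CPM). Over all fibroblasts, Igf1r was highest in Cspg4dsRED (39.99 CPM) and Igfbp6 lowest in Acta2GFP (516.9 CPM), and over all mural cells Igfbp6 was lowest in Cspg4dsRED (3.14 CPM). Igf2 in cluster 2 of Cspg4dsRED was at 0.0 CPM in 8 cells. The Igfbp2 groups met the limit because 1 strain alone held counts, or nearly so. They were Cspg4dsRED in cluster 1 (1.23 CPM), cluster 2 (0.246 CPM), cluster 8 (0.15 CPM), all fibroblasts (0.190 CPM) and all mural cells (19.1 CPM), and Acta2GFP in cluster 4 (0.0653 CPM).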

How the results depend on the processing

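Between fibroblasts and mural cells, 3 members were called, and 2 to 4 under the alternatives listed here except 1. In cells of 100000 to 300000 counts, added after the data were seen, 1 was called (Igfbp6), beside 4.25% of all genes, and the cause was not tested. Leaving out 1 strain gave 2 to 3, beside 2.66 to 3.91% of genes. The other comparisons had 0 members called in edgeR as reported. DESeq2 called 1 in cluster 1 (Igfbp5, beside 5.3% of genes) and 1 in clusters 2, 3 and 4 (Igfbp3) and 5 (Igfbp5). Without the filter on low counts 1 was called for cluster 8 against 7 (Igfbp3, 0.855% of genes) and for clusters 3 (Igfbp3, 0.0705%), 4 (Igfbp3, 0.0184%) and 5 (Igfbp5, 0.119%). Splitting C57BL6 by plate called 1, Igfbp3, in clusters 3 (0.135%) and 4 (0.159%), and limma 1, Igfbp3, in cluster 4 (0.106%). Sums of at least 10 cells called 1, Igfbp6, in cluster 1 (0.748%), and cells of 100000 to 300000 counts 1, Igfbp3, in cluster 3 (0.0321%). Leaving out 1 strain gave 0 to 1 for cluster 1 (Igfbp6 without Cspg4dsRED, 0.748%) and 0 to 1 for cluster 6 (Igfbp5 without C57BL6, 0.144%), and could not be run for cluster 5, which had 2 strains. Sums of at least 10 cells and cells of 100000 to 300000 counts could not be run for cluster 6. With the strain as a replicate block, 2 were called in cluster 3 (Igfbp3 and Igfbp4), 4 between fibroblasts and mural cells (Igfbp5 added), and no other call changed. Size factors of DESeq2 or library sizes alone changed no count. Direction reversed for members that were not called. Igf1r between fibroblasts and mural cells became 0.14 in limma and 0.19 in cells of 100000 to 300000 counts. Igf2r became 0.25 in limma, 0.12 with the replicate block and 0.13 without C57BL6 (-0.88 to 0.13 leaving out 1 strain). Igfbp7 became 0.047 in limma and 0.14 in cells of 100000 to 300000 counts, where Igf2r in cluster 4 became 0.65. Without the cell with most counts of a gene in each strain, 1 of 20 mean levels of fibroblasts or mural cells moved by more than 1 SD (Igfbp3 in fibroblasts, to 193.05 CPM). Igfbp5 in cluster 6 ran from -4.95 to 0.35 leaving out 1 strain (0.35 without Cspg4dsRED). Igf1r and Igfbp2 were seen in few cells, and the part of depth was not tested.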
